A study of Homo sapiens with 52 samples.

Results

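Endothelial cells carry the surface proteins that leukocytes hold on to when they leave the blood. The 8 genes followed here code for such proteins or for close relatives of them: the selectins SELE and SELP, the immunoglobulin-family receptors ICAM1, ICAM2, VCAM1 and ALCAM, the hyaluronan receptor CD44 and the lectin CD69. They were taken by name from a table of 43290 gene symbols, and all 8 are listed for both kinds of library described below.

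Selectins bind sugars on passing leukocytes and slow them to a roll. ICAM1, ICAM2 and VCAM1 then bind leukocyte integrins, which brings the cell to a firm stop on the vessel wall. In resting endothelium E-selectin (SELE) and VCAM1 are scarce and are made after inflammatory cytokines act through NF-κB, whereas P-selectin (SELP) is stored ready-made in granules together with von Willebrand factor and ICAM2 is present at rest.

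Poly-A RNA was sequenced from TeloHAEC, human aortic endothelial cells immortalised with telomerase, and from Eahy926, a hybrid line made from umbilical vein endothelial cells and a lung carcinoma line. For each line 3 libraries, numbered 1.1 to 1.3, were made from cells in normal growth medium (the controls), 3 after IL-1β and 3 after TNF-α, each at 10 ng/ml for 24 h. A further 3 came from a change of vascular endothelial growth factor (VEGF) for 24 h: VEGF was taken out of the TeloHAEC medium, which normally contains it, and was added to the Eahy926 medium. For the TeloHAEC libraries this follows the treatment label; their titles read VEGF, and the files do not settle which is right, so every value without VEGF rests on the treatment label. A pair of untreated libraries of each line, numbered 0.1 and 0.2, was kept apart from the controls. The other kind of library came from a TeloHAEC line with a doxycycline-inducible dCas9 fused to the KRAB repressor and to blue fluorescent protein (CRISPR interference), sorted for that protein. Each of these cultures received 1 guide RNA by lentivirus and 2 µg/ml doxycycline for 5 days. There were 2 guides for each of 10 genes (CCM2, PDCD10, ITGB1BP1, MESDC1, MAP3K3, MAP2K5, MEF2A, KLF2, CDH5 and NFAT5) and 4 non-targeting guides, whose cells carried the same machinery and received the same drug. The labels do not say that replicate libraries came from separate cultures, so p-values measure only the spread between these libraries. In the knockdown tests the 2 guides of a gene, with a single library each, took the place of replicates. Differences between guides and spread between libraries cannot be told apart there. The 2 lines were grown in different media, so line and medium cannot be told apart.

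Values are TPM, a unit of transcript abundance scaled to a fixed total, which allow for transcript length, so levels of different genes can be set side by side. The read depth behind them is unknown, and no lower limit of detection can be given for a gene listed at 0. Between 12098 and 12987 symbols reached 1 TPM in a library of the parental lines, and between 12299 and 12682 in a CRISPR interference library. All 12 endothelial marker genes on the list used here reached 1 TPM in every TeloHAEC library, and 11 of 12 did so in every Eahy926 library, where the junction gene CLDN5 was at 0. The pan-leukocyte gene PTPRC and the lymphocyte genes CD3E, MS4A1 and CD2 were below 1 TPM in every library of both kinds. Other genes of the leukocyte list were not. CD68 averaged 83.1 TPM in the TeloHAEC controls and 167 TPM in the Eahy926 controls, where LYZ averaged 4.08 TPM. CD14 averaged 12.6 TPM with the non-targeting guides and 47.2 TPM with MESDC1 knockdown. In such bulk RNA, fewer cells expressing a gene and less of its RNA per cell cannot be told apart.

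The promoter sequences of 4 members are shown first, because SELE, VCAM1 and ICAM1 were among those that moved up with a cytokine in TeloHAEC and SELP among those that moved down. Each is the 200 bases before the RefSeq start of the gene on GRCh38.p14, 5′ to 3′ on the gene's strand, and capitals mark matches to GGNNNTTCC, the core letters of an NF-κB motif, searched on both strands. They lie at chr1:169734080-169734279 (SELE, minus strand), chr1:100719542-100719741 (VCAM1, plus), chr19:10270920-10271119 (ICAM1, plus) and chr1:169630125-169630324 (SELP, minus).
SELE: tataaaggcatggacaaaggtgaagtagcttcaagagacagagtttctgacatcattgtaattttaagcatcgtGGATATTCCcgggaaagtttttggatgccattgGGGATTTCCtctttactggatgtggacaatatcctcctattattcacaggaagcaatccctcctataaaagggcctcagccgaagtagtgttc
VCAM1: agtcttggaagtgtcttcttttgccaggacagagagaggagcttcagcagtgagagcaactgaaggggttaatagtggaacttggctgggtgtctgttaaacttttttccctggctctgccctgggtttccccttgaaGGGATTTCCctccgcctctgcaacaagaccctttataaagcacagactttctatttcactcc
ICAM1: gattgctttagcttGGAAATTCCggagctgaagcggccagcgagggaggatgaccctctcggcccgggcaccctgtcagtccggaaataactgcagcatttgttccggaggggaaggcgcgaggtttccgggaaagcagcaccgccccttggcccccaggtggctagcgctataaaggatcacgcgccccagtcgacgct
SELP: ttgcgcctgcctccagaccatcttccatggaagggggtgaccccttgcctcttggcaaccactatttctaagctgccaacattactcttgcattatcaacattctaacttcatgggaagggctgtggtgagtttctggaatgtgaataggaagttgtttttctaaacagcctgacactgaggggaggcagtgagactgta
SELE holds 2 matches, starting 126 and 93 bases before the gene's start. VCAM1 holds 1 match in the printed bases, 62 bases before the start, and another farther out at 219 bases on the opposite strand. ICAM1 holds 1 match, 186 bases before the start, which reads as a match on either strand. SELP has none, and nor do the promoters of CD44 and ALCAM, although CD44 also rose with both cytokines. CD69 rose too and ICAM2 fell, but the source used had no promoter for either. Over the 250 bases before the start, 17.1% of 35116 RefSeq promoters hold GGNNNTTCC. A looser form, GGG and CC with 5 bases of any kind between them on either strand, is in 54.4% of promoters and in all 6 of these, SELP, CD44 and ALCAM included. It overlaps both SELE matches and the nearer VCAM1 match. A match describes the letters only. In GENCODE 29, other genes overlap ICAM1, ICAM2, CD44 and SELE on the opposite strand, and the sources used here do not say whether counting used strand, so reads of such pairs cannot be told apart. On the same strand, AL021940.1 overlaps SELE and AL133330.1 overlaps CD44.

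Both cytokines raised E-selectin, ICAM1, CD69 and CD44 in TeloHAEC and lowered P-selectin and ICAM2. VCAM1 rose with TNF-α and reached less than 2 TPM. ALCAM stayed near its control level. The plot of TPM by library shows all 8 genes in every group.

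**Figure D1:**
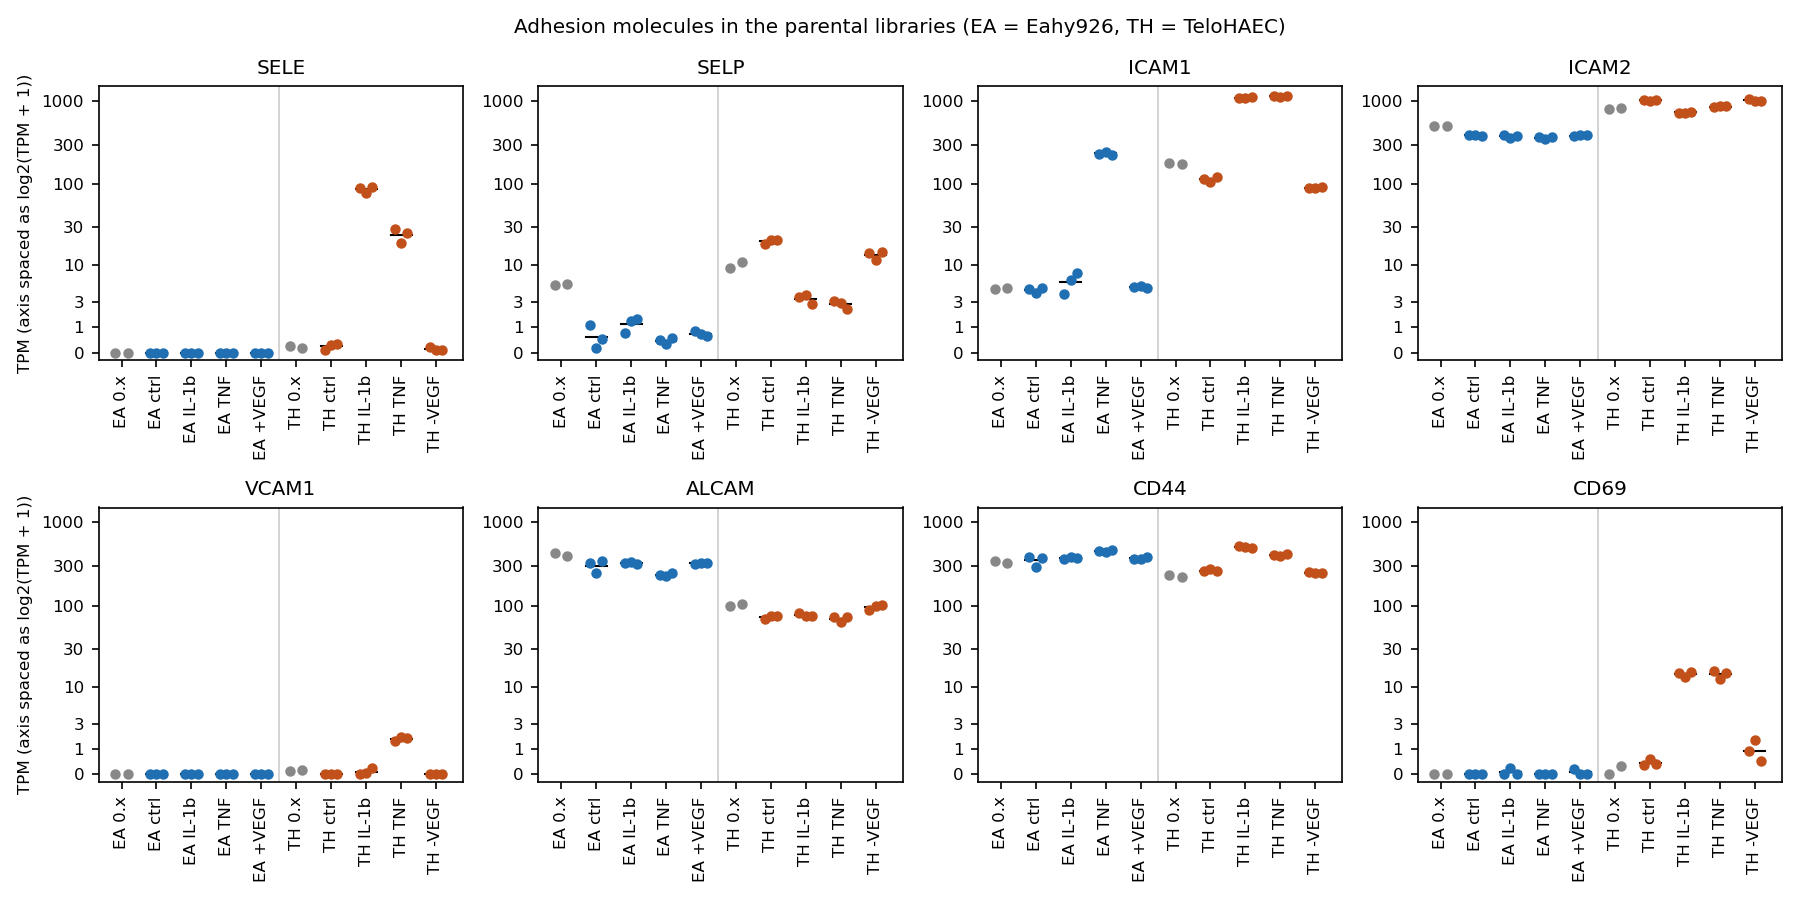
TPM of each member in every parental library, on an axis spaced as log2(TPM + 1). Blue points are Eahy926, orange points TeloHAEC, grey points the untreated pair numbered 0.1 and 0.2, and bars the mean on the log scale. SELE, VCAM1 and CD69 lie at or near 0 in every Eahy926 group, while ICAM1 is high after TNF-α in both lines.

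SELE, the rolling receptor that endothelium makes on activation, stood at 0.0855, 0.221 and 0.285 TPM in the TeloHAEC controls. After IL-1β it stood at 90.1, 79.2 and 93.7 TPM, and after TNF-α at 28.6, 19.3 and 25.5 TPM. The 3 groups do not overlap, and the lowest IL-1β library is above the highest TNF-α library. The difference from the controls was 6.21 on the log2(TPM + 1) scale after IL-1β (95% confidence interval 5.98 to 6.44, limma adjusted p = 1.30e-20) and 4.40 after TNF-α (4.16 to 4.63, adjusted p = 6.54e-18). This scale adds 1 TPM to each value and so understates changes of genes that start near 0. SELE was kept for testing only through these cytokine libraries, where it was high. Its p-values here and its calls below thus give no support beyond the values themselves.

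SELP, the granule-stored selectin, went the other way. Its levels were 19.0, 21.2 and 20.7 TPM in the controls, 3.55, 3.84 and 2.85 TPM after IL-1β and 3.15, 2.90 and 2.31 TPM after TNF-α. Every treated library was far below every control. The mean was 5.95 times lower after IL-1β (log2 difference -2.28, interval -2.64 to -1.91, adjusted p = 9.44e-10) and 7.28 times lower after TNF-α (-2.50, interval -2.86 to -2.13, adjusted p = 3.19e-10). Against the untreated pair 0.1 and 0.2, at 9.11 and 10.9 TPM, the means were 2.93 and 3.59 times lower. VWF, whose protein shares the storage granule with P-selectin, was also lower, at 5.45 ± 0.542 TPM after IL-1β and 5.80 ± 0.382 TPM after TNF-α against 12.2 ± 0.821 TPM in the controls (SD, n = 3 each).

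ICAM1, the main endothelial ligand of the β2 integrins, was already well expressed in the controls, at 118, 107 and 122 TPM. It stood at 1089, 1083 and 1097 TPM after IL-1β and at 1146, 1105 and 1134 TPM after TNF-α. The cytokine groups were each far above the controls, by 9.43-fold and 9.77-fold on the means. The log2 differences were 3.23 (interval 2.98 to 3.47, adjusted p = 2.26e-15) and 3.28 (3.03 to 3.52, adjusted p = 2.92e-15).

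ICAM2, the constitutive integrin ligand of endothelium, was the most abundant of the 8 in the TeloHAEC controls at 1019, 997 and 1035 TPM. It measured 721, 724 and 733 TPM after IL-1β and 845, 855 and 857 TPM after TNF-α. Neither treated group overlaps the controls, although the fall was small: -0.49 after IL-1β (interval -0.55 to -0.42, adjusted p = 3.42e-11) and -0.25 after TNF-α (-0.32 to -0.19, adjusted p = 1.64e-06). With the untreated pair 0.1 and 0.2 added to the controls, the TNF-α fall no longer passed (-0.12, adjusted p = 0.362), and that pair held 792 and 814 TPM.

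VCAM1, which binds the integrin α4β1, was listed at 0 in all 3 controls and stood at 1.49, 1.74 and 1.69 TPM after TNF-α. IL-1β libraries held 0, 0.0452 and 0.176 TPM. The TNF-α libraries were thus apart from all others (log2 difference 1.40, interval 1.197 to 1.603, adjusted p = 2.99e-10), whereas the IL-1β difference did not pass (0.10, interval -0.10 to 0.30, adjusted p = 0.493). Of the parental libraries only these TNF-α ones reached 1 TPM, so VCAM1 was tested only through the group where it was high. Its p-values here and its calls below give no support beyond the values themselves. ALCAM, the ligand of CD6 on T cells, stood at 69.6, 75.0 and 75.5 TPM in the controls, 82.9, 76.1 and 76.1 TPM after IL-1β and 73.4, 64.1 and 73.1 TPM after TNF-α. The IL-1β libraries lie just above the controls (0.09, interval -0.08 to 0.27, adjusted p = 0.439) and the TNF-α libraries overlap them (-0.06, interval -0.24 to 0.11, adjusted p = 0.693).

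CD44, which anchors leukocytes through hyaluronan, held 261, 273 and 259 TPM in the controls. It rose to 519, 503 and 494 TPM after IL-1β and to 403, 394 and 415 TPM after TNF-α, with no overlap among the 3 groups. These were 1.91-fold and 1.53-fold changes of the means (adjusted p = 8.92e-11 and 1.33e-07).

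CD69, a C-type lectin best known as an early activation antigen of lymphocytes, was near 0 in the controls, at 0.296, 0.510 and 0.329 TPM. It stood at 15.2, 13.5 and 15.3 TPM after IL-1β and at 15.9, 12.7 and 15.1 TPM after TNF-α. Every cytokine library was above 12 TPM and no control reached 1 TPM (log2 differences 3.51 and 3.49, adjusted p = 3.29e-14 and 5.96e-14). Among the parental libraries CD69, too, was kept for testing only through the cytokine groups where it was high. Its p-values and calls in these libraries give no support beyond the values. The summed level of 9 leukocyte marker genes was 80.7 to 87.7 TPM in the controls, 71.7 to 77.3 TPM after IL-1β and 75.8 to 78.4 TPM after TNF-α. Of these genes 7 were below 1 TPM in every TeloHAEC library, and nearly all of the sum was CD68. The summed level of the epithelial list, mainly the keratins KRT19 and KRT18, was 2047 to 2134 TPM in the controls, 1061 to 1100 TPM after IL-1β and 1483 to 1572 TPM after TNF-α. Its part in the differences of the members was not tested.

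IL-1β thus changed 6 of the 8 genes, 4 higher and 2 lower, where 31.1% of the 13542 genes tested were called, 9.92% higher and 21.2% lower. TNF-α changed 7 of 8, 5 higher and 2 lower, where 18.2% were called, 8.27% higher and 9.95% lower. SELE, VCAM1 and CD69 were kept for testing only through cytokine-treated TeloHAEC libraries, the groups where they were high. Their calls in these counts, and in those of the parental libraries below, give no support beyond the values themselves. The median log2 difference of the 8 was 0.52 after IL-1β and 1.00 after TNF-α, beside -0.07 and -0.02 over all genes tested. The cytokine comparisons share their 3 controls.

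Set against each other, the cytokines differed in which adhesion genes they moved most. SELE was 3.59-fold higher after IL-1β than after TNF-α (log2 difference 1.82, interval 1.58 to 2.05, adjusted p = 9.95e-11), and CD44 was also higher after IL-1β (0.32, adjusted p = 0.00105). VCAM1 was lower after IL-1β (-1.30, adjusted p = 3.18e-09), as was ICAM2 (-0.23, adjusted p = 1.50e-05). These are 4 of 8 members where 12.7% of all genes were called, 3.52% higher and 9.22% lower after IL-1β. For ICAM1 the difference was -0.05 (interval -0.30 to 0.20), for CD69 0.01 (-0.30 to 0.32), for SELP 0.22 (-0.14 to 0.58) and for ALCAM 0.16 (-0.01 to 0.33), none of which passed.

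**Figure D2:**
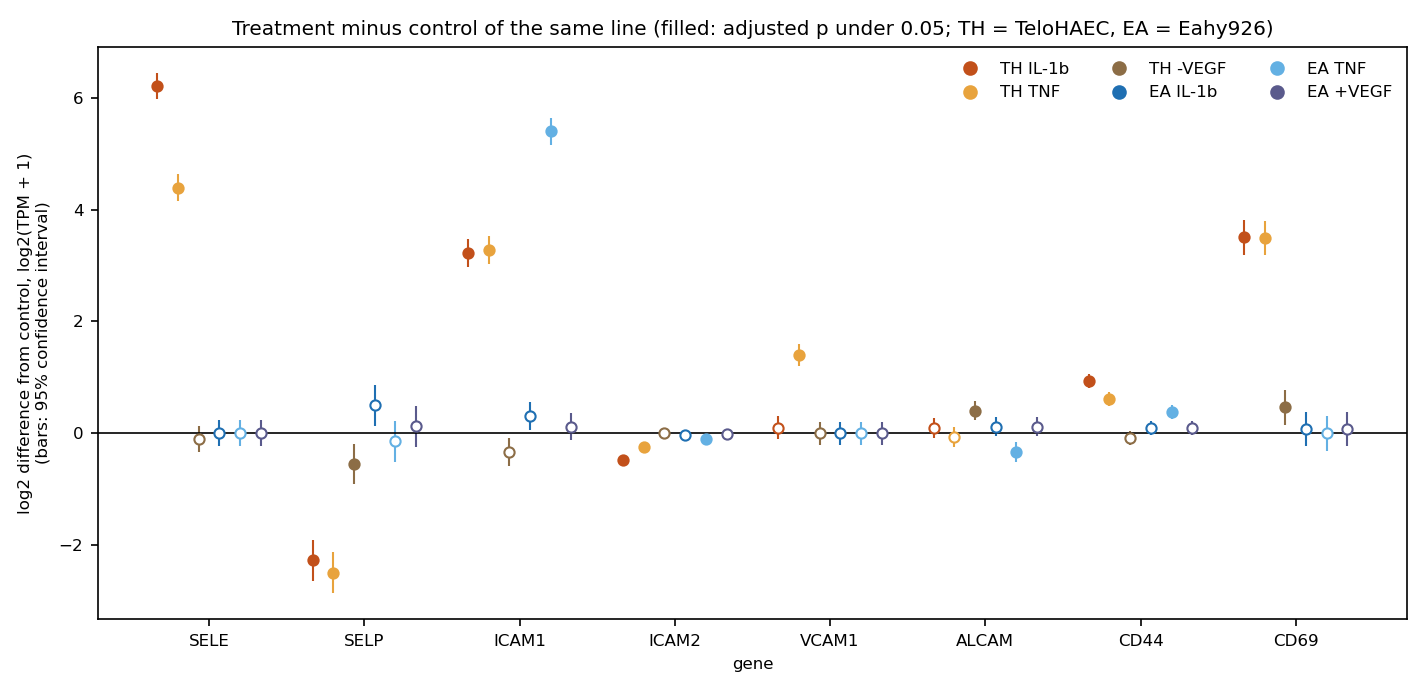
Log2(TPM + 1) difference of each member with its 95% confidence interval in 6 comparisons, with filled points where the adjusted p was below 0.05. TH is TeloHAEC and EA Eahy926. TeloHAEC cytokine points run from -2.50 (SELP, TNF-α) to 6.21 (SELE, IL-1β), while all 8 Eahy926 points for IL-1β and all 8 for VEGF are open.

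Taking VEGF out of the TeloHAEC medium moved few of these genes, and by little. ALCAM stood at 90.4, 101 and 101 TPM without VEGF, above all 3 controls (log2 difference 0.41, interval 0.23 to 0.58, adjusted p = 0.00214). SELP stood at 14.3, 11.7 and 14.7 TPM, below all 3 controls (-0.55, adjusted p = 0.0398), a call that was lost on leaving out any 1 of the 6 libraries (adjusted p from 0.0576 to 0.166). CD69 stood at 0.894, 1.54 and 0.416 TPM and overlapped the controls (0.46, adjusted p = 0.0441), and its call was lost without control library 1.1 or 1.3 or without VEGF-free library 1.1 or 1.2. These 3 of 8, 2 higher and 1 lower, compare with 13.1% of all genes called, 9.10% higher and 4.02% lower. ICAM1 lay at 90.6, 90.4 and 92.0 TPM, below every control, but its difference of -0.34 did not pass (adjusted p = 0.0631), although it did when only the 2 groups were fitted (adjusted p = 0.00350). The untreated pair 0.1 and 0.2 lay below the VEGF-free libraries in SELP, at 9.11 and 10.9 TPM, and at their level in ALCAM, at 101 and 105 TPM. Against that pair alone, the SELP difference was 0.40 and the ALCAM difference -0.08.

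In Eahy926, TNF-α acted on ICAM1 above all. ICAM1 held 4.79, 4.07 and 4.92 TPM in the controls and 233, 246 and 226 TPM after TNF-α, a 51.2-fold change of the means (log2 difference 5.40, interval 5.16 to 5.65, adjusted p = 6.98e-19). The treated libraries remained far below the more than 1100 TPM that TNF-α gave in TeloHAEC. CD44 stood at 386, 296 and 379 TPM in the controls and at 458, 446 and 470 TPM after TNF-α, again without overlap (0.38, adjusted p = 8.67e-05).

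ALCAM and ICAM2 were lower after TNF-α. ALCAM went from 323, 246 and 341 TPM to 233, 230 and 251 TPM, with 1 treated library inside the control range (-0.33, adjusted p = 0.00577). ICAM2 went from 391, 393 and 379 TPM to 367, 351 and 365 TPM, a small fall without overlap (-0.10, adjusted p = 0.0208) that was lost without control library 1.1 or TNF-α library 1.2. These 4 of 8, 2 higher and 2 lower, compare with 20.0% of all genes called, 12.5% higher and 7.45% lower. The summed epithelial list, here mainly the keratin KRT7, was 4092 to 4153 TPM in the Eahy926 controls and 2528 to 2669 TPM after TNF-α, and the leukocyte list, again mostly CD68, 157 to 187 TPM and 202 to 225 TPM. Their part in these differences was not tested. When only the Eahy926 controls and TNF-α libraries were fitted, CD44, ALCAM and ICAM2 did not pass (adjusted p = 0.0675, 0.162 and 0.284) and ICAM1 was the 1 member called. SELE, VCAM1 and CD69 were listed at 0 in every control and every TNF-α library, and the SELP difference was -0.14 (adjusted p = 0.630).

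IL-1β and added VEGF each changed 0 of 8 members in Eahy926 by limma, where 0.00738% of all genes were called in each comparison. At an unadjusted p under 0.05 there were 2 members after IL-1β, ICAM1 and SELP, and 0 after VEGF. After IL-1β ICAM1 measured 4.04, 6.40 and 7.91 TPM, on both sides of the controls (0.31, interval 0.07 to 0.56, adjusted p = 0.426), but without IL-1β library 1.1 the difference was 0.54 with an adjusted p of 0.00351. SELP measured 0.696, 1.39 and 1.50 TPM beside 1.12, 0.145 and 0.473 TPM in the controls (0.50, adjusted p = 0.426). IL-1β and TNF-α libraries of this line differed in 4 of 8 members, where 16.3% of all genes were called, 7.75% higher and 8.55% lower after IL-1β. ICAM1 was lower after IL-1β (-5.09, adjusted p = 1.81e-18) and so was CD44 (-0.28, adjusted p = 0.00216). ALCAM (0.45, adjusted p = 0.000376) and SELP (0.64, adjusted p = 0.0124) were higher after IL-1β. The SELP call was lost without IL-1β library 1.2 or 1.3 or TNF-α library 1.2 (adjusted p up to 0.0764).

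The receptors for the cytokines also differed between the lines. IL1R1, the signalling receptor for IL-1, was at 23.4 ± 1.75 TPM in the TeloHAEC controls and at 0.0361 ± 0.0421 TPM in the Eahy926 controls (SD, n = 3 each), and at 0 in the Eahy926 IL-1β libraries. Its partner IL1RAP was at 8.13 ± 0.579 and 4.86 ± 0.665 TPM. TNFRSF1A, the main TNF receptor of most cells, was at 322 ± 6.23 TPM in TeloHAEC and 243 ± 11.4 TPM in Eahy926. The part of these levels in the responses was not tested.

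Without any treatment, the adhesion genes stood in a different order in the 2 lines. In TeloHAEC the order of TPM was ICAM2, CD44, ICAM1, ALCAM, SELP and then CD69 and SELE below 1 TPM, with VCAM1 at 0. In Eahy926 ICAM2 (379 to 393 TPM) lay above ALCAM (246 to 341 TPM), CD44 (296 to 386 TPM) overlapped both, ICAM1 was near 5 TPM and SELP near 1 TPM or below, and the other 3 were at 0. ICAM1 was 25.2-fold higher in TeloHAEC (log2 difference 4.38, adjusted p = 4.58e-19), ICAM2 was 2.62-fold higher (1.39) and SELP was higher (3.80), all without overlap. The size of the SELP difference depended on the untreated libraries used. In the pairs 0.1 and 0.2 the lines were much closer, with mean SELP at 10.0 TPM in TeloHAEC and 5.52 TPM in Eahy926. ALCAM was 4.13 times lower in TeloHAEC (-2.02, adjusted p = 1.18e-15) and CD44 was lower (-0.41, adjusted p = 3.85e-06). CD69 and SELE were higher by 0.46 and 0.26 on the log2 scale (adjusted p = 0.00840 and 0.0440), at levels below 1 TPM in both lines. The SELE call was lost without any 1 of several libraries (adjusted p from 0.0682 to 0.150). That makes 7 of 8 members, 5 higher and 2 lower in TeloHAEC, where 76.2% of all genes were called, 36.3% higher and 39.9% lower.

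The responses of the lines were compared directly as an interaction. For IL-1β the response was larger in TeloHAEC for SELE (by 6.21 on the log2 scale, adjusted p = 1.78e-17), CD69 (3.43), ICAM1 (2.92) and CD44 (0.83), and more negative for SELP (-2.78) and ICAM2 (-0.45). These are 6 of 8 members, 4 higher and 2 lower, where 22.5% of all genes were called, 5.96% higher and 16.5% lower. For TNF-α, SELE (4.40), CD69 (3.49) and VCAM1 (1.40) had the larger response in TeloHAEC, while ICAM1 had the smaller one (-2.12, adjusted p = 7.55e-09), with untreated levels 25.2-fold apart. SELP (-2.35) and ICAM2 (-0.15, adjusted p = 0.0264) were also called, 3 higher and 3 lower in all, where 10.3% of all genes were called, 3.26% higher and 7.05% lower. The ICAM2 call was lost on leaving out any 1 of 6 of the 12 libraries (adjusted p up to 0.0733). For CD44 the TNF-α responses differed by 0.23 (adjusted p = 0.114) and for ALCAM by 0.27 (adjusted p = 0.174), and both passed once Eahy926 control library 1.2, which was lowest in both genes, was left out (0.35 and 0.41, adjusted p = 8.13e-06 and 0.00126). With the pairs 0.1 and 0.2 added to the controls, the SELP and ICAM2 interactions with IL-1β were lost (adjusted p = 0.0711 and 0.404), as was the SELP interaction with TNF-α (adjusted p = 0.314), and that of ICAM2 with TNF-α became 0.12 (adjusted p = 0.688). Against the pairs alone all 4 turned sign, to 0.27 (SELP) and 0.25 (ICAM2) with IL-1β and to 0.69 (SELP) and 0.54 (ICAM2) with TNF-α, and all but SELP with IL-1β (adjusted p = 0.347) passed the test in that direction.

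The choice of untreated libraries turned the sign of some differences of SELP, ICAM2 and ALCAM. The Eahy926 pair 0.1 and 0.2 held 5.47 and 5.58 TPM of SELP, above the 1.12 TPM that was the highest among controls 1.1 to 1.3, and 495 and 495 TPM of ICAM2. In TeloHAEC that pair held 173 and 179 TPM of ICAM1 and 222 and 234 TPM of CD44, so the cytokine rises of both genes kept their direction against it. Against the TeloHAEC pair alone, the ALCAM difference was -0.39 after IL-1β and -0.55 after TNF-α.

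**Figure D3:**
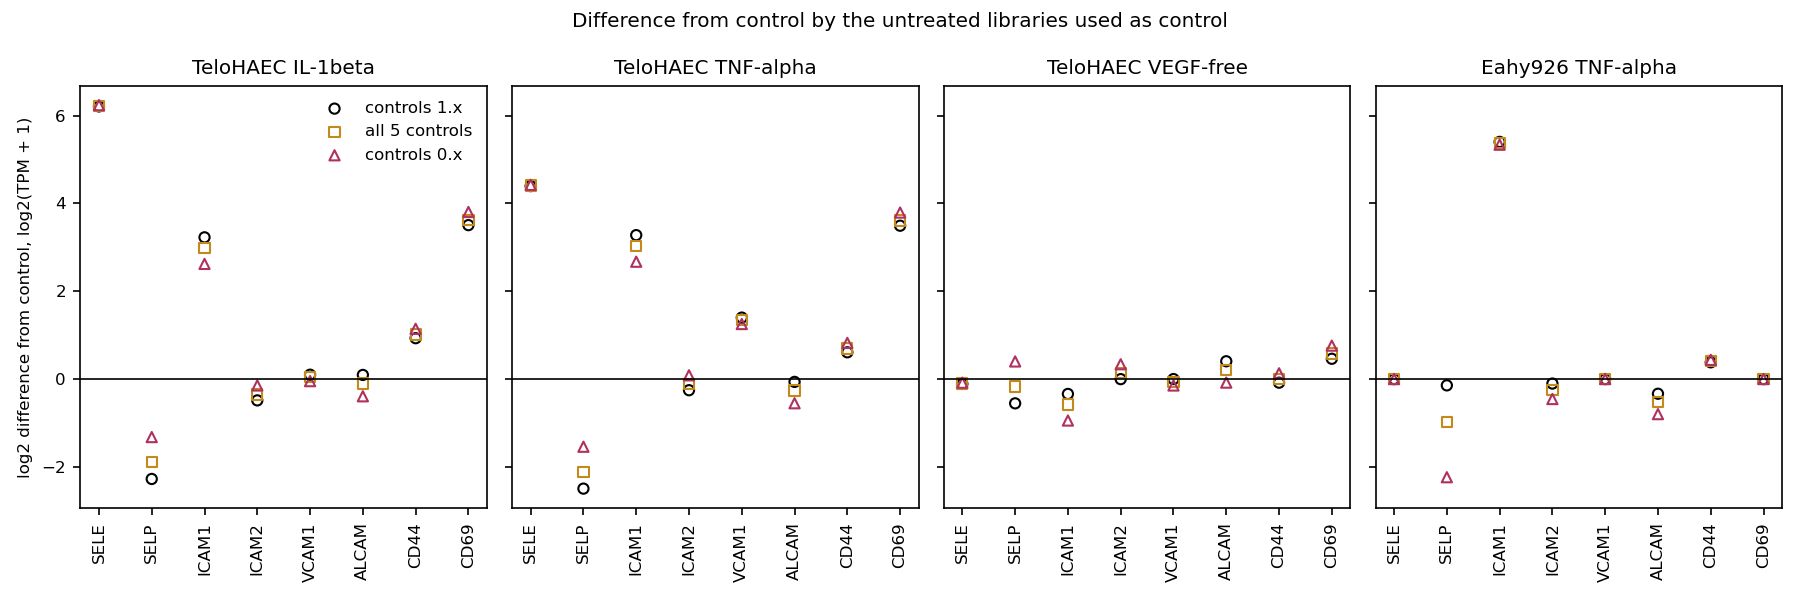
Log2(TPM + 1) difference of each member in 4 comparisons when the controls are libraries 1.1 to 1.3, all 5 untreated libraries, or the pair 0.1 and 0.2. SELE, ICAM1, CD44 and CD69 stay above 0 with every control set in both TeloHAEC cytokine panels, while ICAM2 after TNF-α goes from -0.25 to 0.09.

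Genes that work beside the 8 were read from lists of related roles. Their counts stand beside shares called over all genes of 31.1% (IL-1β), 18.2% (TNF-α) and 13.1% (no VEGF) in TeloHAEC and 20.0% (TNF-α) in Eahy926. Of 24 docking and transmigration partners on the endothelial surface, 21 were tested in the parental libraries. In TeloHAEC 9 were higher and 5 lower after IL-1β, and 8 were higher and 4 lower after TNF-α. ICAM4, an integrin-binding relative of ICAM1, had the largest rise, from 0.465 ± 0.193 TPM to 7.96 ± 0.682 TPM after IL-1β and 9.49 ± 2.29 TPM after TNF-α (log2 differences 2.62 and 2.82). PODXL, a sialomucin of the luminal surface, was at 754 against 522 TPM after IL-1β, and PECAM1, the junction receptor used in transmigration, was at 135 against 187 TPM after TNF-α. In Eahy926 6 partners were higher and 3 lower after TNF-α, with PECAM1 at 24.0 against 46.7 TPM, and 0 were called after IL-1β or VEGF. VEGF-free medium gave 1 higher and 3 lower.

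Of 14 scaffold and shedding genes, which tie adhesion receptors to actin or cleave them, 4 were higher and 5 lower in TeloHAEC after IL-1β and 2 were higher and 3 lower after TNF-α. EZR, the linker ezrin that binds the tails of ICAM1 and CD44, was at 191 against 280 TPM after IL-1β. ADAM17, a protease that sheds surface proteins, was at 68.6 against 46.2 TPM. VEGF-free medium gave 0 higher and 1 lower, and Eahy926 with TNF-α 5 higher and 2 lower. Of 12 selectin-ligand and glycosylation genes 8 were tested: 2 were higher and 1 lower after IL-1β and 1 was higher and 1 lower after TNF-α in TeloHAEC, 2 were higher without VEGF, and 1 was higher with TNF-α in Eahy926. GCNT1, which builds the branch that carries selectin-binding sugars, was at 4.62 against 8.16 TPM after IL-1β in TeloHAEC. Of 7 leukocyte counter-receptors 2 were tested, and in TeloHAEC 1 was lower after IL-1β and 0 were called after TNF-α. Of 7 cytokine receptor and adaptor genes 6 were tested in TeloHAEC, with 1 higher and 1 lower after IL-1β, 1 higher and 3 lower after TNF-α and 2 higher and 1 lower without VEGF.

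Other genes followed the members closely over the 24 parental libraries. The Pearson correlation of log2(TPM + 1), given as a description since the libraries share lines and groups, was 0.967 between SELE and CD69. The gene most like SELE was YAE1D1 (0.977). CSF2, the granulocyte-macrophage growth factor (0.966), and the chemokine CXCL3 (0.963) were also among the 5 genes most like SELE. Most like ICAM1 were TMEM132A (0.993), the apolipoprotein gene APOL3 (0.989) and the cytokine gene IL32 (0.983). Most like SELP were LGR4, a receptor of R-spondins (0.976), and the prostaglandin transporter SLCO2A1 (0.973).

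In the CRISPR interference line, CCM2 knockdown went with more P-selectin and ICAM1 RNA with each guide. ITGB1BP1 knockdown went with more ICAM1 RNA with each guide, but P-selectin RNA was above the non-targeting range with 1 guide only. No member was called with PDCD10 knockdown. The cerebral cavernous malformation (CCM) complex is a cytoplasmic scaffold in endothelial cells that restrains the kinase MAP3K3, and CCM2 and PDCD10 are among the genes mutated in the human disease. ITGB1BP1 binds its partner KRIT1, and MESDC1 is an older name of TLNRD1, which binds CCM2. The guides for the first 3 genes are shown because the results below turn on differences between guides of 1 gene. Each is given as in the labels, named by its plate position, with capitals marking the last 19 bases where they match a transcript of its gene.
CCM2 guide C2: ggcaagaaggtgagcgtgcg
CCM2 guide F6: gaGCCGCTACATGCTCGACCC
ITGB1BP1 guide C7: gaAGGCCGCGGCACTCCCACG
ITGB1BP1 guide G8: gccgcggtatataagccggc
PDCD10 guide D11: gACCGAGCAGAAGAGGTCTA
PDCD10 guide G1: gcCGCTTTACGCCACTCGCGT
The matches are to GENCODE 29 transcripts on GRCh38, with 5 of CCM2 for F6, 8 of ITGB1BP1 for C7, and 2 of PDCD10 for D11 and 1 for G1. Only the transcript whose match begins earliest was read, and the match lay in its exon 1 each time. F6 lies at chr7:45000256-45000274 in untranslated sequence of the CCM2 transcript read, on the strand opposite to the gene. C7 lies at chr2:9423418-9423436, D11 at chr3:167734747-167734765 and G1 at chr3:167734626-167734644, with C7 and D11 on the gene's strand and G1 on the other. The transcripts read for C7, D11 and G1 carry no coding sequence, and the other transcripts matched by C7 and D11 were not read. A guide without capitals has no match in a transcript of its gene.

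Targeted RNA was lower than in every non-targeting library for 18 of 20 guides. CCM2 was at 15.6% of the non-targeting mean with guide C2 and at 4.45% with F6, PDCD10 at 12.9% with D11 and 40.9% with G1, and ITGB1BP1 at 12.9% with C7 and 14.2% with G8. The exceptions were guide A11 for MAP2K5 (105%) and D7 for NFAT5 (97.1%). Intervals, SDs and p-values of a knockdown thus mix such differences between guides with the spread between libraries. KLF2, a transcription factor gene kept in check by the CCM complex, was at 107 ± 13.0 TPM with the non-targeting guides (SD, n = 4). It was at 706 ± 23.5 TPM with CCM2 knockdown, 502 ± 22.9 TPM with ITGB1BP1 knockdown, 488 ± 377 TPM with PDCD10 knockdown and 10.1 ± 6.24 TPM with MAP3K3 knockdown (SD, n = 2 guides each).

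SELP stood at 3.02, 4.66, 2.61 and 3.20 TPM with the non-targeting guides B6, D2, D8 and F4. With the CCM2 guides it stood at 12.8 TPM (C2) and 23.7 TPM (F6), both far above every non-targeting library. The mean was 5.42-fold higher (log2 difference 2.10, interval 1.46 to 2.74, limma adjusted p = 0.000219). With the ITGB1BP1 guides SELP was at 13.6 TPM (C7) and 4.59 TPM (G8), the second just inside the non-targeting range (1.07, adjusted p = 0.0380). That call was lost without guide C7 (0.38, adjusted p = 0.597) and without non-targeting guide B6, D8 or F4. The PDCD10 guides gave 4.36 and 4.24 TPM, inside the range, and the MESDC1 guides 8.89 and 6.79 TPM, above it (1.03, adjusted p = 0.174).

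ICAM1 varied little between non-targeting guides, at 120, 123, 121 and 116 TPM. It was at 240 and 290 TPM with the CCM2 guides (2.21-fold, log2 difference 1.13, interval 0.72 to 1.54, adjusted p = 0.00103) and at 250 and 217 TPM with the ITGB1BP1 guides (1.94-fold, 0.95, adjusted p = 0.00664). All 4 libraries were well above the non-targeting range, although the ITGB1BP1 call was lost without guide C7 (0.85, adjusted p = 0.120). The PDCD10 guides gave 228 TPM (D11) and 141 TPM (G1), both above the range, and the difference did not pass (0.58, adjusted p = 0.0828). The MESDC1 guides gave 180 and 167 TPM, also above the range (0.53, adjusted p = 0.310).

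CCM2 knockdown thus raised 2 of the 6 members tested and lowered none. With ITGB1BP1 knockdown 2 of the 6 were also called higher and none lower. However, SELP with guide G8 lay inside the non-targeting range, and both ITGB1BP1 calls depended on guide C7. Over 14143 genes CCM2 knockdown called 14.0%, 5.66% higher and 8.37% lower, and ITGB1BP1 knockdown 7.70%, 3.34% higher and 4.36% lower. SELE and VCAM1 were too low to be tested: SELE was at most 0.716 TPM and VCAM1 at most 0.0723 TPM in any CRISPR interference library. PDCD10 and MESDC1 knockdown changed 0 of 6 by limma, where 7.04% and 0.552% of all genes were called, with 3 members (ICAM1, ICAM2, CD44) and 2 members (ICAM1, SELP) at an unadjusted p under 0.05. Without guide G1, under which PDCD10 RNA was still at 40.9%, the PDCD10 comparison passed for ICAM1 (0.92, adjusted p = 0.00618), ICAM2 (0.44, adjusted p = 0.00122) and CD44 (1.03, adjusted p = 0.0157). That comparison then rests on guide D11 alone, which is assumed to vary like the other groups. When only the 2 groups compared were fitted, SELP and ICAM1 passed for MESDC1. The 10 knockdown comparisons share the 4 non-targeting libraries.

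**Figure D4:**
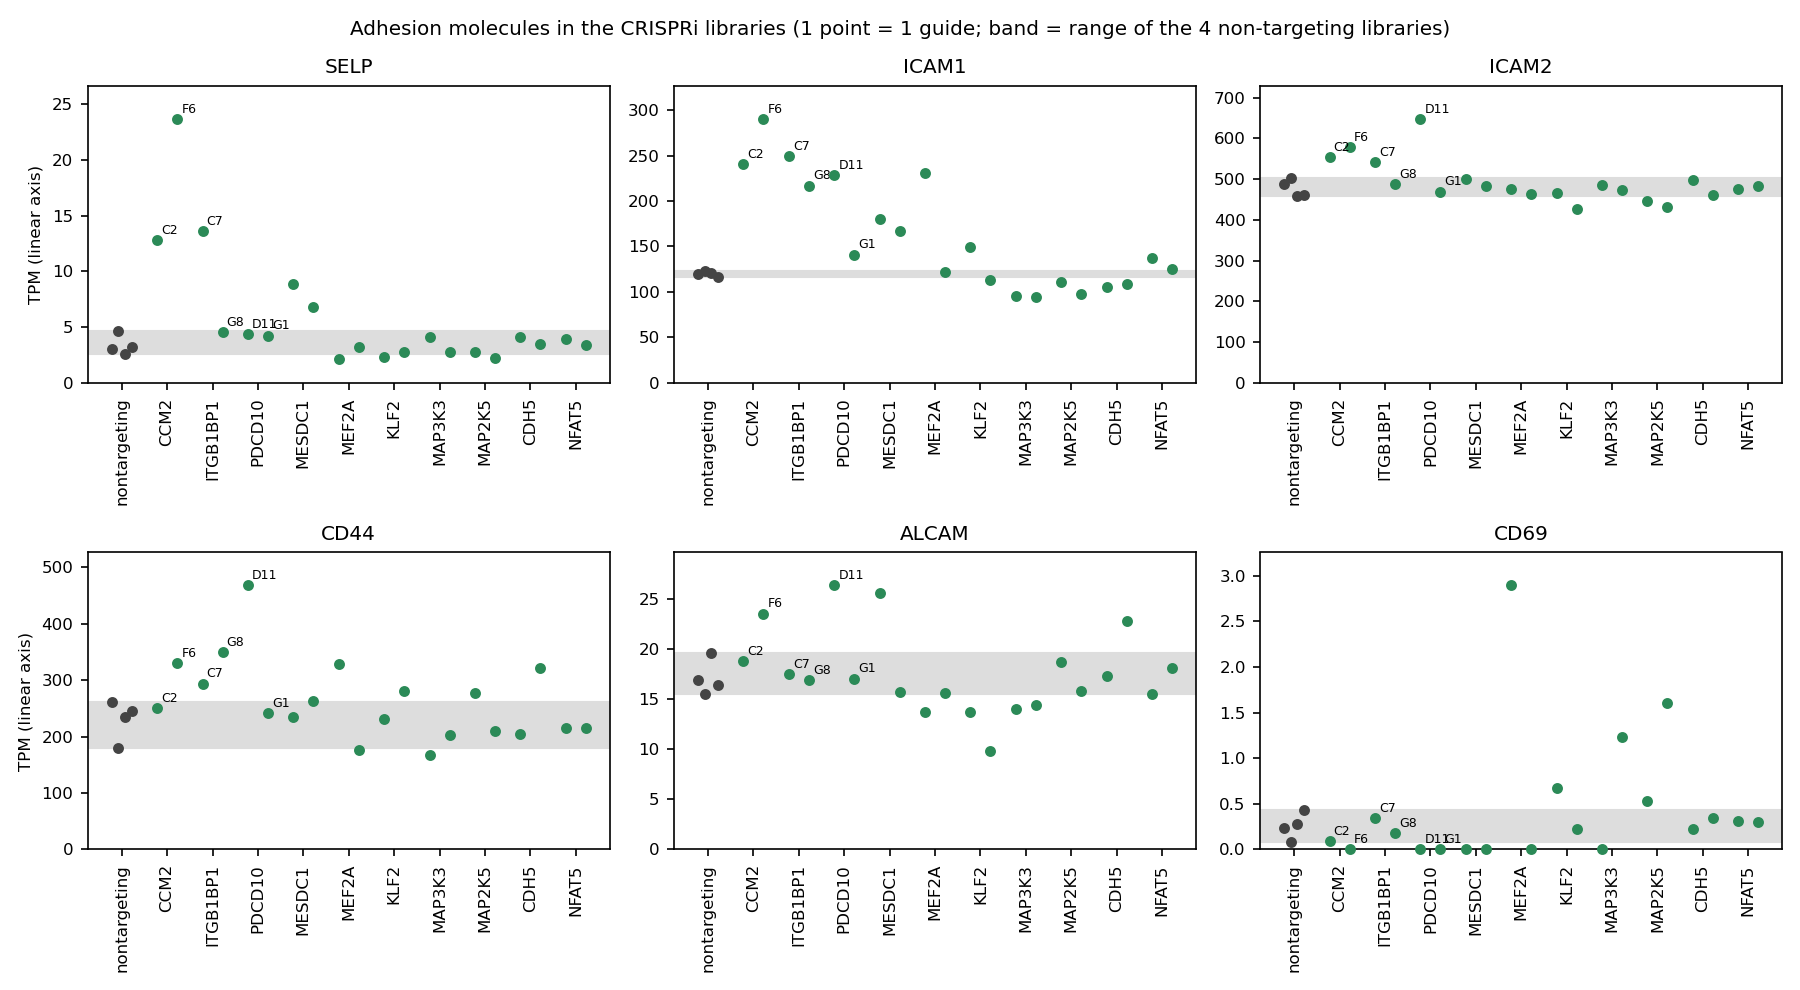
TPM of 6 members in each CRISPR interference library, with 1 point per guide and a grey band over the range of the 4 non-targeting libraries. SELP reaches 23.7 TPM and ICAM1 290 TPM with CCM2 guide F6, and the 2 PDCD10 guides lie apart in ICAM1 and CD44.

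With both guides of a gene in the fit, no other member was called in any knockdown. CD44 ranged from 180 to 261 TPM with the non-targeting guides and stood at 468 TPM with PDCD10 guide D11 but 241 TPM with G1. It was at 294 and 349 TPM with the ITGB1BP1 guides, above the range, and its difference did not pass (0.49, adjusted p = 0.272). ICAM2 was at 554 and 579 TPM with the CCM2 guides, above the non-targeting range of 459 to 503 TPM (0.25, adjusted p = 0.0945). ALCAM, at 15.5 to 19.6 TPM with the non-targeting guides, was not called in any knockdown. CD69 was below 1 TPM in every CCM2, ITGB1BP1, PDCD10 and MESDC1 library.

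Genes downstream or beside this complex gave no called member. MAP3K3, MAP2K5, MEF2A, KLF2, CDH5 and NFAT5 knockdown each changed 0 of 6 by limma, where 0.0566%, 0%, 0.00707%, 0.0141%, 0.0141% and 0.00707% of all genes were called. Target RNA was not lowered by guide A11 for MAP2K5 (105%) or D7 for NFAT5 (97.1%). The MAP2K5 and NFAT5 comparisons thus each include a library without knockdown. At an unadjusted p under 0.05 there was 1 member for MEF2A (ICAM1), 1 for KLF2 (ALCAM) and 0 for each of the other 4. ICAM1 stood at 95.04 and 94.78 TPM with the MAP3K3 guides, below all 4 non-targeting libraries (-0.34, adjusted p = 0.769). With the MEF2A guides it stood at 231 TPM (C10) and 122 TPM (H10), and CD69 at 2.89 and 0 TPM. Without H10 both passed (ICAM1 0.94, adjusted p = 0.0161, and CD69 1.64, adjusted p = 0.0311), on guide C10 alone.

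Among the docking partners 20 were tested in these libraries, where 14.0% (CCM2), 7.70% (ITGB1BP1), 7.04% (PDCD10) and 0.552% (MESDC1) of all genes were called. CCM2 knockdown had 3 higher and 1 lower, ITGB1BP1 3 higher and 1 lower, PDCD10 2 higher and 2 lower and MESDC1 1 higher. CD34, a sialomucin that can serve as a selectin ligand, was at 120 ± 22.3 TPM with CCM2 knockdown, 48.2 ± 18.9 TPM with ITGB1BP1 knockdown and 36.3 ± 10.4 TPM with MESDC1 knockdown (SD, n = 2 guides each), against 11.4 ± 2.09 TPM (SD, n = 4). ICAM4 was at 5.68 ± 2.40 against 0.388 ± 0.0803 TPM with ITGB1BP1 knockdown. Of the 14 scaffold and shedding genes 5 were higher and 1 lower with CCM2 knockdown, 3 higher and 1 lower with ITGB1BP1 and 2 higher and 1 lower with PDCD10. EZR, which fell with IL-1β, was at 218 against 115 TPM with CCM2 knockdown. Of 7 ligand and glycosylation genes tested, 2 were higher and 1 lower with CCM2 and with ITGB1BP1 knockdown, and 1 was lower with PDCD10 knockdown. GCNT1 was the lower one in all 3. Of 4 counter-receptors tested, 1 was higher with ITGB1BP1 knockdown, and of 6 cytokine receptor genes 3 were higher with CCM2 knockdown, including IL1R1 at 45.1 ± 9.87 against 15.3 ± 2.17 TPM.

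Markers of other cell types moved with the CCM2 result. The summed level of the 9 leukocyte markers was 131 to 172 TPM with CCM2 knockdown and 56.5 to 70.0 TPM with the non-targeting guides, from CD68 and CD14, with PTPRC below 1 TPM. The summed level of the epithelial list, mainly KRT18, was 5404 to 6507 TPM against 1211 to 1395 TPM, with EPCAM and CDH1 below 1 TPM. Sums were also high with PDCD10 knockdown, at 95.9 to 223 TPM for the leukocyte list and 2633 to 6819 TPM for the epithelial list. With MESDC1 knockdown these sums were 96.2 to 159 TPM and 2493 to 2653 TPM. The summed smooth muscle and fibroblast list was 181 to 192 TPM with CCM2 knockdown and 108 to 115 TPM with the non-targeting guides, with TAGLN at 112 ± 9.56 against 20.7 ± 1.64 TPM (SD, n = 2 guides and n = 4) and COL3A1, DCN and LUM below 1 TPM. Genes of a list did not all move together. With CCM2 knockdown ACTA2 of the smooth muscle list was lower, at 69.5 to 73.3 against 84.4 to 91.5 TPM. KRT7 of the epithelial list was also lower, at 1.17 to 1.59 against 4.53 to 7.50 TPM. The smooth muscle and fibroblast sum was 88.4 to 155 TPM with PDCD10 knockdown, 129 to 134 TPM with ITGB1BP1 knockdown and 111 to 151 TPM with MESDC1 knockdown. With ITGB1BP1 knockdown ACTA2 was higher, at 114 to 115 TPM, and TAGLN lower, at 13.0 to 17.0 against 18.5 to 22.4 TPM. With ITGB1BP1 knockdown the leukocyte sum was 58.5 to 69.6 TPM and the epithelial sum 2937 to 3267 TPM. Their part in the SELP and ICAM1 differences was not tested.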

How the data were processed

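Gene-level TPM values of 52 libraries were used as the authors deposited them, in one table by gene symbol, and the read depth is not given. The submitters' processing notes name Bowtie2, kallisto and the build hg19, with no role for each. TPM of the parental libraries sums to 1000000, while the CRISPR interference libraries sum to 968439 to 972166, and the blocks list different sets of symbols (19608 in both), so each was fitted apart.

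Tests were made with limma 3.58.1 in R 4.3.3 (trended empirical Bayes) on log2(TPM + 1), over genes that reached 1 TPM in 3 or more parental libraries, or in 2 or more CRISPR interference libraries: 13542 genes in 24 parental libraries and 14143 in 24 CRISPR interference libraries. Benjamini-Hochberg adjustment ran over all genes of a block, and adjusted p below 0.05 was called. There were 21 comparisons. Scripts were tested on simulated data.

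The 8 members and the lists of partner, scaffold, ligand, counter-receptor, cytokine receptor and marker genes were chosen with earlier results of these data known. Some list genes are not reported here. Named were all members, the knockdown targets and KLF2, the cytokine receptors, up to 4 called genes a list and comparison, by size of difference, whose higher group mean was 5 TPM or more, and for SELE, ICAM1 and SELP up to 5 genes of like pattern. Members below the filter are given by their values. The summed smooth muscle and fibroblast markers were at 134 to 198 TPM in TeloHAEC, 30.5 to 73.5 TPM in Eahy926 and 88.4 to 192 TPM in CRISPR interference libraries, with COL3A1, DCN and LUM below 1 TPM.

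Alternatives were a pseudocount of 0.1, filters of 0 and 5 TPM, quantile normalisation or median-of-ratios rescaling, a robust prior, a replicate block, separate fits of the compared groups, controls drawn from all 5 untreated libraries, and leaving out each library. Using the pair 0.1 and 0.2 as the only controls and leaving out guides A11 and D7 were added after seeing the data. A sign change of a difference that was not called was not counted as a reversal. Motifs and guides were searched with Python 3.11.15 and figures drawn with matplotlib 3.10.9.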

Additional observations from a re-analysis of the deposited data

Results flagged for a closer look

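The responses of the lines to IL-1β differed by the interaction test for 6 members. The TeloHAEC minus Eahy926 difference of log2 responses was 6.21 for SELE, -2.78 for SELP, 2.92 for ICAM1, -0.45 for ICAM2, 0.83 for CD44 and 3.43 for CD69. The responses to TNF-α differed for 6 members as well, by 4.40 for SELE, -2.35 for SELP, -2.12 for ICAM1, -0.15 for ICAM2, 1.40 for VCAM1 and 3.49 for CD69.

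Among the 4 non-targeting libraries, the SELE level with guide D8 stood apart, at 0.278 TPM against 0.123 to 0.150 TPM in the other 3. The gap was 0.8291 of the whole range. Chance flags about 1 in 20 groups of this size, and all 4 values are below 1 TPM.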

How the results depend on the processing

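Of 2303 recomputed differences of members, 2195 kept direction and side of the threshold, 60 lost their call, 40 gained one and 8 called differences changed sign. For list genes, 1333 of 1539 kept both, 200 lost the call and 6 changed sign. Of 1395 recomputed differences that were not called at first, 73 changed sign.

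The number of members called in VEGF-free TeloHAEC, 3, became 1 with a pseudocount of 0.1, with no filter and with the replicate block, and 5 against the pair 0.1 and 0.2 alone. Under the replicate block SELP in VEGF-free medium had an adjusted p of 0.0615. Libraries with the same number did not deviate together over the genes tested (mean correlation -0.000780 in TeloHAEC and 0.0125 in Eahy926, 0 of 18 pairs above 0.1 in each line). The labels do not say what the number means, and such a correlation cannot settle whether these libraries share a culture or day. Against that pair alone Eahy926 had 4 in place of 0 members called after IL-1β and 4 in place of 0 after VEGF, and over all genes 6663 and 6858 in place of 1 each. In TeloHAEC the count over all genes then was 9203 in place of 4217 after IL-1β, 8463 in place of 2467 after TNF-α and 8073 in place of 1777 without VEGF, and in Eahy926 after TNF-α 7451 in place of 2706. The Eahy926 comparison of IL-1β with TNF-α had 2 in place of 4 with all 5 controls. Fitting only the groups compared gave 1 in place of 4 for Eahy926 with TNF-α, 1 in place of 2 for ITGB1BP1, 2 in place of 0 for MESDC1 and 1 in place of 0 for MAP3K3. ITGB1BP1 also had 1 with no filter and without guides A11 and D7, and PDCD10 had 1 in place of 0 with rescaling by the median of ratios, which moved the median of all genes by 0.1001 there and by 0.104 in the IL-1β interaction. The cause was not tested.

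Leaving out each library in turn gave 6 to 6 members called for TeloHAEC with IL-1β, 6 to 7 with TNF-α, 1 to 2 without VEGF, 3 to 4 between the cytokines, 6 to 7 between the lines, 6 to 6 in the IL-1β interaction and 4 to 8 in the TNF-α interaction. In Eahy926 it gave 0 to 1 with IL-1β, 3 to 4 with TNF-α, 0 to 0 with VEGF and 3 to 4 between the cytokines. For knockdowns it gave 2 to 2 for CCM2, 0 to 2 for ITGB1BP1, 0 to 3 for PDCD10 and 0 to 2 for MEF2A.

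With all 5 controls, ADAM10 after TNF-α in Eahy926 became -0.00115 and the ICAM2 TNF-α interaction 0.12. With the pair 0.1 and 0.2 alone, in TeloHAEC ICAM2 became 0.086 after TNF-α, and without VEGF SELP 0.40, ALCAM -0.080, BCAM 0.066 and CD99 0.019. In Eahy926 with TNF-α ADAM10 became -0.42, PODXL -0.22 and ADAM17 -0.34. The interactions became 0.27 for SELP and 0.25 for ICAM2 with IL-1β and 0.69 for SELP and 0.54 for ICAM2 with TNF-α. The cause was not tested.

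Depth is unknown in TPM, so values below 1 TPM, as for SELE and VCAM1 at rest, have no counting error attached, and 2 or 3 libraries a group limit the precision.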
